A study of Homo sapiens with 18 samples.

Results

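DNA methylation was compared between DU145 and PC3, 2 established cell lines grown from metastases of prostate cancer, at single CpG resolution. Both genomes had been treated with bisulfite and read by reduced representation bisulfite sequencing (RRBS), which samples CpG-rich fragments and gives for each CpG the number of reads in which the cytosine was methylated and the number of all reads. CpGs of chromosomes 1 to 20 with at least 20 reads in both lines were taken, which were 1253096 of the 2434305 CpGs listed for both. The methylation level of a CpG is the percentage of its reads that were methylated, and a difference is given in percentage points, DU145 minus PC3. Promoters were taken as the 1 kb on either side of the 5′ end of each gene record in GRCh37, the build of the files, with at least 5 compared CpGs, and 12109 of 18550 protein-coding genes had such a promoter.

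The study set 5 kits for capturing methylated DNA with a methyl-CpG binding domain (MBD) side by side and used RRBS as the reference. It comprised 18 libraries, with 3 cell lines (DU145, PC3 and the colorectal cancer line HCT15), each read once by RRBS and once with every kit. According to the labels all lines came from ATCC and were kept in the complete growth medium of that supplier, without treatment, and genomic DNA was isolated with the Easy DNA kit. The study's methods name a hospital laboratory as the source of the DU145 cells and a later passage for them than for PC3, so that line, source and passage cannot be told apart. Each line was represented by 1 RRBS library and 1 library per kit, so no test between the lines is possible, the spread between cultures is unknown, and CpGs and promoters are named by the size of the difference. RNA was not measured, and a methylation level does not show whether a gene was expressed.

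In mammalian genomes most cytosines in CpG context are methylated by DNA methyltransferases, whereas the dense clusters of CpGs at gene starts (CpG islands) are mostly kept free of the mark. Tumour cells commonly show both gains at islands and losses across large stretches of the genome, and heavy methylation of an island promoter goes along with stable silencing of the gene. Prostate tumours are known for methylated promoters of genes such as GSTP1, which encodes a glutathione transferase.

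To show what the measurements look like, 2 stretches upstream of a gene start are given that lie outside annotated exons and that hold the most compared CpGs among the promoters named below by size. Each is written 5′ to 3′ in the direction of the gene, with capitals for the CpGs that were compared. The first lies directly upstream of DNAH10, which encodes a heavy chain of axonemal dynein, at chr12:124246435-124246734 on the plus strand. The second lies directly upstream of CDH2, which encodes N-cadherin, at chr18:25757911-25758210 on the minus strand.
DNAH10: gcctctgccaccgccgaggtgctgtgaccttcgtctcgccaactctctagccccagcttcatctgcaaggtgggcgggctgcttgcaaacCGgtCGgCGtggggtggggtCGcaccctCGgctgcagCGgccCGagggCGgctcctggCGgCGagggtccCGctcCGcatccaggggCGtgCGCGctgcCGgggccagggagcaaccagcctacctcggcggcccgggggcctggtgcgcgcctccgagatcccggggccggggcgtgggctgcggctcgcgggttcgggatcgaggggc
CDH2: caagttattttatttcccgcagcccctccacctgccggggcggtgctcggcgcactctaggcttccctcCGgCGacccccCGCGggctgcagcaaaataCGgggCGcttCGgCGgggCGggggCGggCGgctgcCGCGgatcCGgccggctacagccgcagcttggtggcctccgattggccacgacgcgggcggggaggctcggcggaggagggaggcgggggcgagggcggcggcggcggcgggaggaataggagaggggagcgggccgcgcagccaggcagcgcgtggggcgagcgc
The DNAH10 stretch holds 35 CpGs, of which 16 were compared. Their mean level was 10.9% in DU145 and 98.5% in PC3, and every one of them was at 92% or more in PC3. At the capital CpG closest to the gene start but one, 1 of 31 reads was methylated in DU145, or 3.23%, and 50 of 50 in PC3. The CDH2 stretch holds 42 CpGs, of which 14 were compared, and it shows the opposite pattern, with a mean of 73.7% in DU145 and 8.04% in PC3. In DU145 the levels of neighbouring CpGs in that stretch spread from 30.6% to 95.8%, whereas 12 of the 14 CpGs had no methylated read in PC3. With 24 to 48 reads in PC3, no methylated read allows a level of up to 12.5% at the shallowest and 6.25% at the deepest of these CpGs. The intervals and limits given here cover counting error only, and CpGs on a common fragment share reads.

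Both stretches also show a feature of the files that touches every promoter value. In the DNAH10 stretch the 2 CpGs that lie within the bases CCGG had 61.3% and 51.6% in DU145, whereas the other 14 had between 0 and 12.9%, with a mean of 4.40%. In the CDH2 stretch the 2 CpGs within CCGG had 58.3% and 54.2% in PC3, beside the 12 other CpGs at 0. Across CpG-dense promoter positions (at least 20 CpGs within 100 bp), the median level of the 33722 CpGs within CCGG was 54.3% in DU145, 54.2% in PC3 and 55.6% in HCT15. For the 2568 CpGs within TCGA these medians were 55.2%, 55% and 56.9%, and for the 177501 other CpGs they were 0.63%, 0% and 0%. In promoters with a mean of at least 70% in both lines, in contrast, CpGs within CCGG had a median of 97.4% in DU145 and 95.5% in PC3, close to the 97.8% and 96.2% of other CpGs. CCGG and TCGA read the same on both strands and are the recognition sequences of the restriction enzymes MspI and TaqI, while the enzymes used for these libraries are not given in the sources used here. CpGs within CCGG were 27.8% and those within TCGA 9.36% of the CpGs compared, and 62.8% lay in neither. The levels near 50% were alike in all lines, and their cause was not tested. Promoters of ribosomal protein genes, which are needed in every cell, had a median of 15.9% in DU145 and 16.4% in PC3 over all CpGs, and of 1.3% and 1.4% without the CpGs in these bases. For the promoters that were called, means are therefore also given over the CpGs outside CCGG and TCGA where at least 5 of these remained.

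DU145 was the more methylated line. The mean level over all compared CpGs was 62.2% (SD 40.6 over CpGs) in DU145 and 55.9% (SD 39.8) in PC3, and the medians were 82.9% and 65.9%. The median coverage was 55 reads per CpG in DU145 and 41 in PC3. A level of at least 80% was found at 51.7% of the CpGs in DU145 and at 41.8% in PC3, and a level of at most 20% at 27.0% and 30.1%. Most CpGs were alike, as 819527 of them (65.4%) differed by at most 10 points. The plot of levels in both lines shows that CpGs that did differ were mostly high in DU145.

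**Figure D1:**
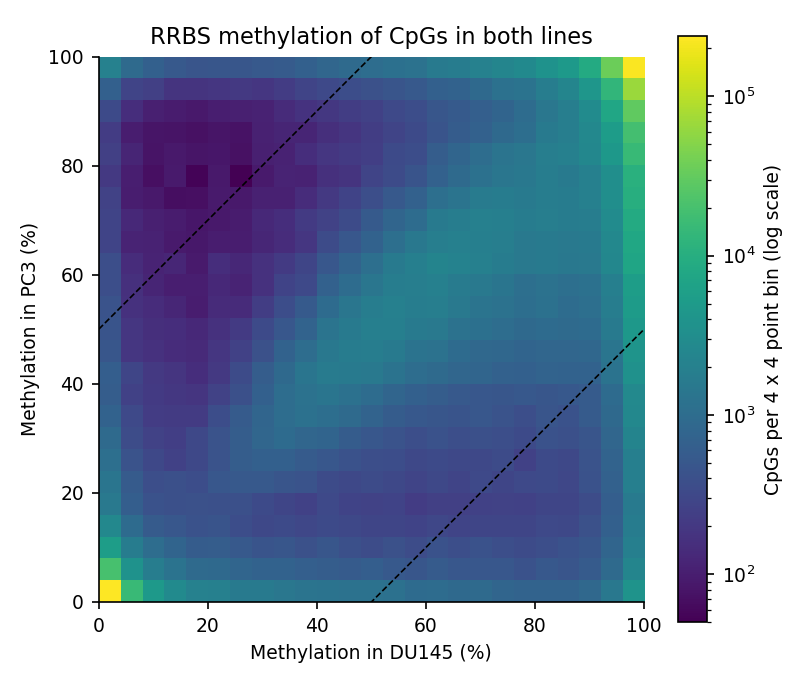
Methylation level (%) of the 1253096 compared CpGs in DU145 (x axis) against PC3 (y axis), counted in squares of 4 by 4 points with a logarithmic colour scale; dashed lines mark a difference of 50 points. Below the lower line lie the 68926 CpGs at least 50 points higher in DU145 and above the upper line the 20181 at least 50 points higher in PC3.

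A difference of at least 50 points towards DU145 was found at 68926 CpGs, or 5.5% of those compared, and towards PC3 at 20181 CpGs, or 1.61%, a ratio of 3.42. Fisher's exact test (two-sided) on the methylated and unmethylated reads of the CpG, with Benjamini-Hochberg adjustment over all CpGs compared and a threshold of 0.05, called 277801 CpGs, with 16.9% of all CpGs higher in DU145 and 5.26% higher in PC3. This test compares the 2 libraries and not the lines, since it contains counting error only. All CpGs with a difference of at least 50 points passed it. Outside CCGG and TCGA the mean levels were lower, at 50.5% and 44.2%, with 7.31% of CpGs at least 50 points higher in DU145 and 2.36% higher in PC3.

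The surplus in DU145 lay outside promoters and CpG-dense sequence. In promoters the mean levels were 22.9% in DU145 and 22.3% in PC3, and 2.36% of the CpGs were at least 50 points higher in DU145 against 1.92% in PC3, a ratio of 1.23. In exons outside promoters the means were 67.9% and 63.8% and the ratio of calls was 2.03. In introns the means were 78.7% and 70.7%, with 6.16% of CpGs higher in DU145 and 1.18% higher in PC3. Between genes the means were 79.4% and 67.3%, with 9.10% and 1.41%, a ratio of 6.44. CpG density separated the lines further. Where at most 4 CpGs, itself included, lay within 100 bp of a CpG, the mean was 85.3% in DU145 and 73.7% in PC3, and 7.11% of CpGs were higher in DU145 against 0.507% in PC3, a ratio of 14.0. With 20 to 29 CpGs within 100 bp, 2.86% were higher in either line, a ratio of 1.00, and with at least 30 the ratio was 1.09.

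**Figure D2:**
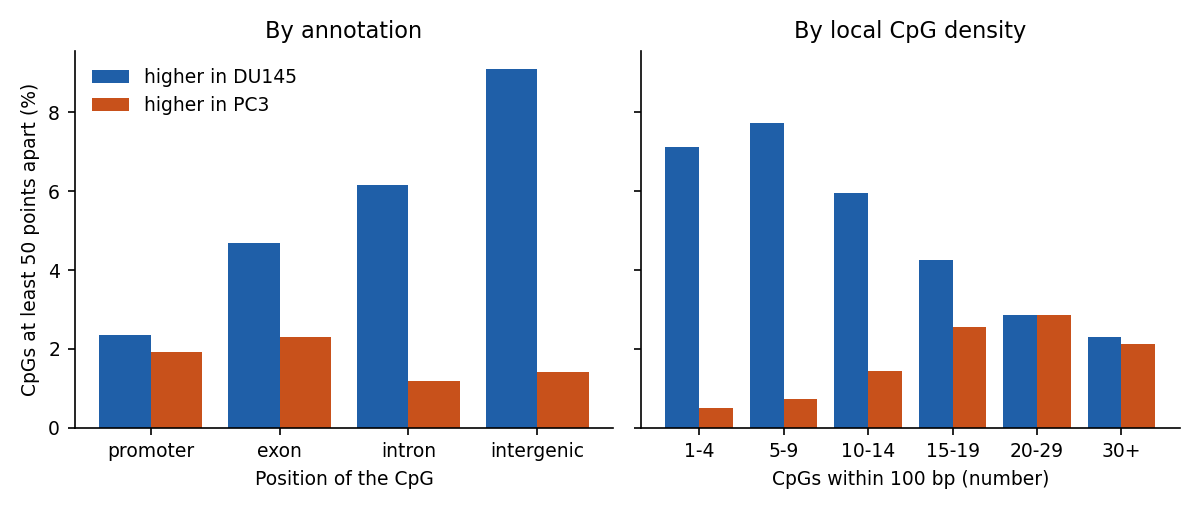
Percentage of compared CpGs (y axis, from 0) that were at least 50 points higher in DU145 or in PC3, by genomic position and by the number of CpGs within 100 bp. The bars of DU145 exceed those of PC3 between genes (9.10% against 1.41%) and in CpG-poor sequence (7.11% against 0.507%), and both are equal at 20 to 29 CpGs (2.86%).

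The same held along the chromosomes. Of 2557 windows of 1 Mb with at least 50 compared CpGs, the mean level was at least 20 points higher in DU145 in 350, or 13.7%, and at least 20 points higher in PC3 in 1, or 0.0391%. The mean was higher in DU145 by any amount in 2256 windows (88.2%), with a median difference of 5.55 points. The windows furthest apart were chr12:23000001-24000000, with 90.8% in DU145 and 29.4% in PC3 over 54 CpGs, chr16:60000001-61000000, with 83.1% and 34.0% over 81 CpGs, and chr11:97000001-98000000, with 84.9% and 36.3% over 110 CpGs. None of these 3 holds the start of a protein-coding gene. The window most in favour of PC3, chr4:158000001-159000000, had 50.3% in DU145 and 75.5% in PC3 over 83 CpGs and holds the start of GRIA2, a subunit of glutamate receptors. The next ones, chr4:43000001-44000000 with 68.0% against 84.2% and chr6:93000001-94000000 with 68.7% against 83.7%, were 16.2 and 14.9 points apart. In the last of these the direction turned when only the 43 CpGs outside promoters and exons were taken, with 86.2% in DU145 and 79.1% in PC3. By whole chromosome the mean difference ran from 4.50 points on chromosome 19 to 9.66 points on chromosome 18, where 8.60% of the CpGs were at least 50 points higher in DU145 and 1.56% higher in PC3.

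Promoter means were close to each other overall. The mean over the 12109 promoters, which held a median of 26 compared CpGs, was 26.7% in DU145 and 25.9% in PC3, the median difference was 0.10 points, and 10081 promoters (83.3%) differed by at most 10 points. At most 20% in both lines was found for 6999 promoters (57.8%) and at least 70% in both for 819. A promoter was at least 50 points higher in DU145 in 139 cases, or 1.15%, and at least 50 points higher in PC3 in 148 cases, or 1.22%. In these the less methylated line had a median of 20.8% where DU145 was higher and 20.7% where PC3 was higher, while the more methylated line had 86.4% and 89.6%. All CpGs of the promoter differed in the same direction in 92 of the 139 and in 96 of the 148. Of 10718 promoters rich in CpGs 106 were higher in DU145 and 122 in PC3, while among 261 promoters poor in CpGs these numbers were 5 and 1. Outside CCGG and TCGA, 11193 promoters kept at least 5 CpGs, with medians of 1.68% in DU145 and 1.74% in PC3, and 184 (1.64%) were higher in DU145 and 185 (1.65%) in PC3. Of the 287 promoters called over all CpGs, 28 could no longer be measured there, and the remaining 124 and 135 all kept their call and direction.

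The promoters of 12 protein-coding genes most in favour of DU145, among those with at least 10 compared CpGs, had means of 83.0% to 98.7% in DU145 and 8.13% to 23.9% in PC3. The means in PC3 were 0.38% to 10.6% outside CCGG and TCGA. Values are the mean ± SD over the CpGs of the promoter, a spread within 1 library, and the 95% Wilson interval of the summed reads was at most 7.21 points wide. Genes of cell adhesion were in this group. CDH7, a cadherin of neural tissues (5′ end at position 63417488 of chromosome 18, plus strand), had 98.4% ± 2.2 in DU145 and 10.9% ± 26.3 in PC3 over 34 CpGs, with 98.3% and 2.0% over the 28 outside CCGG and TCGA. CDH2 (25757910 of chromosome 18, minus strand), the gene of the second stretch above, had 83.0% ± 13.9 and 8.1% ± 19.3 over 59 CpGs, and 81.1% ± 14.2 and 0.4% ± 0.8 over 50. KAZN (14219287 of chromosome 1, plus strand), which encodes a desmosome-associated protein, had 94.1% ± 9.1 and 13.0% ± 18.6 over 35 CpGs, and 93.6% and 7.5% over 31.

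Homeobox and histone genes were among them too. HOXB13 (46806112 of chromosome 17, minus strand), a transcription factor of the prostate lineage, had 91.9% ± 11.6 in DU145 and 13.5% ± 23.9 in PC3 over 28 CpGs, and 92.1% ± 12.8 and 0.8% ± 0.9 over the 21 outside CCGG and TCGA. HOXA9 (27214799 of chromosome 7, minus strand) had 97.1% ± 3.0 and 21.2% ± 25.9 over 27 CpGs, and 97.2% ± 3.3 and 1.4% ± 1.5 over 16. The HOXA9 difference of 75.9 points became 34.6 points with 2 kb on either side of the 5′ end. The HOXA9 record runs from position 27202057 to 27214799, and its window lies at the outermost 5′ end. Starts of HOXA9 inside the record were therefore not measured, and the value need not describe them. The histone gene H2BC3 (26043941 of chromosome 6, minus strand), whose window is shared with H3C3, had 98.6% and 6.0% over the 8 CpGs outside CCGG and TCGA, and H4C5 (26204838 of chromosome 6, plus strand) had 99.4% and 0.9% over 7. Enzymes made up most of the rest. The promoter of the kinase gene DYRK1B (40324841 of chromosome 19, minus strand) had 97.8% and 0.4% over 6 such CpGs, and that of AMDHD2 (2570358 of chromosome 16, plus strand), an enzyme of amino sugar metabolism, 98.1% and 9.9% over 19. ADHFE1 (67344727 of chromosome 8, plus strand), an iron-dependent mitochondrial dehydrogenase, had 99.1% and 10.6% over 14. C2CD4D (151813033 of chromosome 1, minus strand) and NRN1L (67918788 of chromosome 16, plus strand), a relative of neuritin, had 93.4% and 98.3% in DU145 against 3.6% and 3.8% in PC3. The difference of C2CD4D was 81.2 points over all CpGs and 51.5 points over those with at least 50 reads. Within C2CD4D, in an exon 2229 bp from the 5′ end, 18 CpGs went the other way, with 10.0% in DU145 and 98.1% in PC3. These CpGs were picked after their values were seen.

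The 12 promoters most in favour of PC3 had means of 90.7% to 98.8% in PC3 and 8.29% to 16.5% in DU145, and 0.18% to 10.2% in DU145 outside CCGG and TCGA. Their Wilson intervals were at most 4.22 points wide. The largest number of CpGs stood behind NAPRT (144660819 of chromosome 8, minus strand), which encodes the enzyme that starts NAD synthesis from nicotinic acid, with 11.8% ± 20.7 in DU145 and 96.9% ± 11.1 in PC3 over 82 CpGs, and 2.5% and 96.6% over the 67 outside CCGG and TCGA. HOXA5 (27183300 of chromosome 7, minus strand), which lies in the same cluster as HOXA9 and showed the opposite direction, had 12.5% ± 20.3 and 98.5% ± 1.9 over 60 CpGs, and 2.9% ± 5.2 and 98.2% ± 2.0 over 48. TNFRSF10D (23021540 of chromosome 8, minus strand), a decoy receptor for the death ligand TRAIL, had 12.9% ± 24.2 and 98.3% ± 3.0 over 23 CpGs, and 0.6% and 98.5% over 18. DNAH10 (124246735 of chromosome 12, plus strand), the gene of the first stretch above, had 12.3% ± 17.9 and 98.7% ± 2.1 over 38 CpGs, and 5.8% and 98.9% over 33.

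The others had similar profiles. Outside CCGG and TCGA the growth factor gene FGF11 (7341592 of chromosome 17, plus strand) had 2.2% in DU145 and 97.5% in PC3, and TGIF1 (3411606 of chromosome 18, plus strand), a homeobox repressor in TGF-β signalling, 2.8% and 99.1%. The phosphatase gene PTP4A2 (32410457 of chromosome 1, minus strand) had 0.6% and 95.8%, and TXNRD1 (104609557 of chromosome 12, plus strand), thioredoxin reductase, 0.5% and 97.3%. BVES (105585032 of chromosome 6, minus strand), a membrane protein of muscle and epithelia, had 0.8% and 95.6%, CENPV (16256970 of chromosome 17, minus strand), a centromere protein, 0.8% and 93.9%, and PARP6 (72565340 of chromosome 15, minus strand), a relative of poly(ADP-ribose) polymerases, 0.2% and 92.9%. WASHC1 (73865 of chromosome 9, minus strand), a subunit of the WASH complex, had 10.2% and 96.8%. WASHC1 belongs to a subtelomeric family of near-identical copies, so its reads may be shared with these and its value is uncertain. The window decided the calls of FGF11 and TGIF1, whose differences of -89.3 and -86.9 points over all CpGs became -15.1 and -48.8 points with 2 kb on either side. FGF11 was also at -55.7 points with at least 10 reads per CpG.

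**Figure D3:**
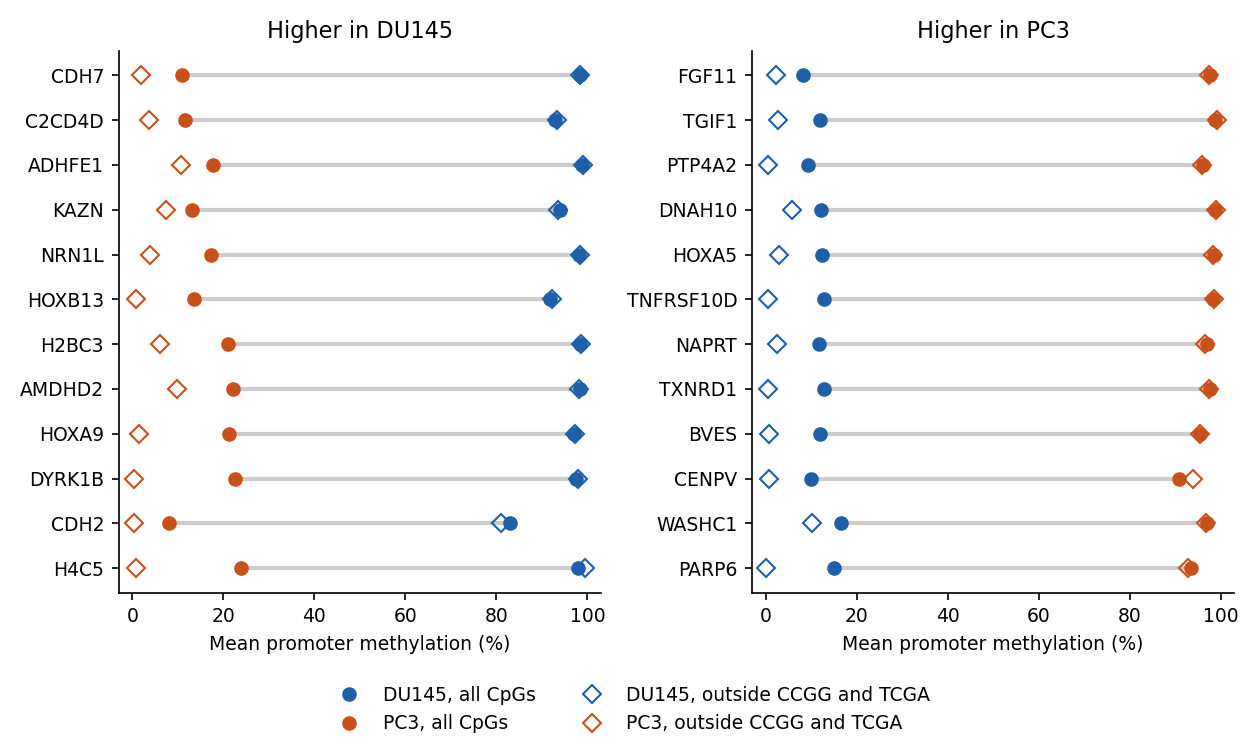
Mean methylation (%, x axis) of the 24 promoters named by size, in DU145 and PC3, over all compared CpGs (filled circles) and over those outside CCGG and TCGA (open diamonds). The lower line sits between 8.13% and 23.9% over all CpGs and between 0.18% and 10.6% outside these bases, while the higher line hardly moves.

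Of 23 measured genes of epithelial identity none was at least 50 points apart, beside 1.15% and 1.22% of all promoters, and 21 were within 10 points, beside 83.3% of all promoters. The nearest to the limit were PRSS8, a membrane protease, with 83.8% in DU145 and 53.7% in PC3, and SPINT2, a protease inhibitor, with 75.3% and 94.5%. CDH1, which encodes E-cadherin, had 22.6% and 21.7%, and 5.16% and 4.93% outside CCGG and TCGA. Of 14 mesenchymal genes 2 were higher in DU145 and none in PC3. Besides CDH2 this was TWIST1, a transcription factor of epithelial-mesenchymal transition, with 86.9% ± 14.0 and 16.1% ± 22.7 over 54 CpGs, and 86.2% and 8.0% over 44.

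Among 12 measured genes of the prostate lineage and androgen response, 2 were higher in DU145 and none in PC3, beside 1.15% and 1.22% of all promoters. These were HOXB13 and GATA2, a partner of the androgen receptor, with 79.5% ± 16.4 in DU145 and 19.4% ± 27.4 in PC3 over 57 CpGs, and 77.2% and 9.5% over 44. With 500 bp on either side GATA2 was 48.7 points apart and thus just below the limit. The 10 others differed by at most 10 points. None of 21 steroid and nuclear receptor genes reached 50 points, and RORA, with 47.3% in DU145 and 11.7% in PC3, and HNF4A, with 95.9% and 63.8%, came nearest.

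Of 23 genes known for promoter methylation in prostate cancer, 2 were higher in DU145 and 4 in PC3, beside 1.15% and 1.22% of all promoters. PDLIM4, a cytoskeletal adaptor, had 81.0% in DU145 and 15.5% in PC3 over 21 CpGs, and 78.0% and 7.1% over 17. CDH13, an atypical cadherin, had 91.5% and 41.3% over 34 CpGs, and 91.6% and 34.5% over 27. The CDH13 difference of 50.2 points was 11.0 points with 500 bp on either side, 48.3 with 2 kb and 48.4 after thinning to 20 reads, and so lost its call. In PC3 both decoy receptors for TRAIL were high, as TNFRSF10C had 21% and 94.7% over 21 CpGs, and 7.8% and 94.3% over 15, beside the values of TNFRSF10D given above. AOX1, aldehyde oxidase, had 33.4% and 98.7% over 17 CpGs, and 26.1% and 98.5% over 13. DKK3, a member of the Dickkopf family, had 35.7% and 88.6% over 23, and 28.3% and 93.6% over 17. HAPLN3 was the nearest below the limit with 22.6% and 70.1%, and outside CCGG and TCGA it passed it with 9.1% and 69.6%. GSTP1, which was named after its values were seen, had 61.0% and 36.7% over 13 CpGs, and 53.2% and 20.7% over 8. Among 25 CDK inhibitors and apoptosis genes only the 2 TRAIL decoy receptors reached 50 points, and among 15 secreted Wnt antagonists only DKK3 did, with FRZB at 79.8% in DU145 and 31.0% in PC3 just short of it. FRZB reached it with 82.3% and 21.4% when CpGs in CCGG and TCGA were left out.

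HOX genes, which set positions along the body axis, held calls in both directions. Of the 38 measured 3 were higher in DU145 and 1 in PC3, beside 1.15% and 1.22% of all promoters, and outside CCGG and TCGA these numbers were 6 and 2, beside 1.64% and 1.65%, with family medians of 54.6% in DU145 and 28.3% in PC3. Besides HOXB13 and HOXA9, HOXC6 was higher in DU145 with 70.5% against 18.5% over 8 CpGs, and 68.6% against 1.5% over 6, while its summed reads differed by 46.6 points. HOXA3 with 97.3% against 44.6%, HOXA4 with 56.3% against 1.0% and HOXC4 with 54.1% against 1.3% joined them outside these bases, and HOXD1 with 6.7% against 61.7% joined HOXA5. The HOXC6 record runs from position 54384408 to 54424607 of chromosome 12, with the window at its outermost 5′ end. Starts of HOXC6 inside the record were not measured. On the chromosome HOXA5 stands between HOXA4 and HOXA6, and the latter had 2.4% and 1.6% outside these bases. Among the 11 measured genes of the HOXA cluster 3 were higher in DU145 there and HOXA5 alone was higher in PC3, as the plot of HOX promoters shows. The windows lie at the outermost 5′ ends of the gene records. The HOXA3 record also overlaps called CpGs at chr7:27182729-27182955 in the HOXA5 promoter. The order of the windows on the chromosome therefore need not follow the gene numbers.

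**Figure D4:**
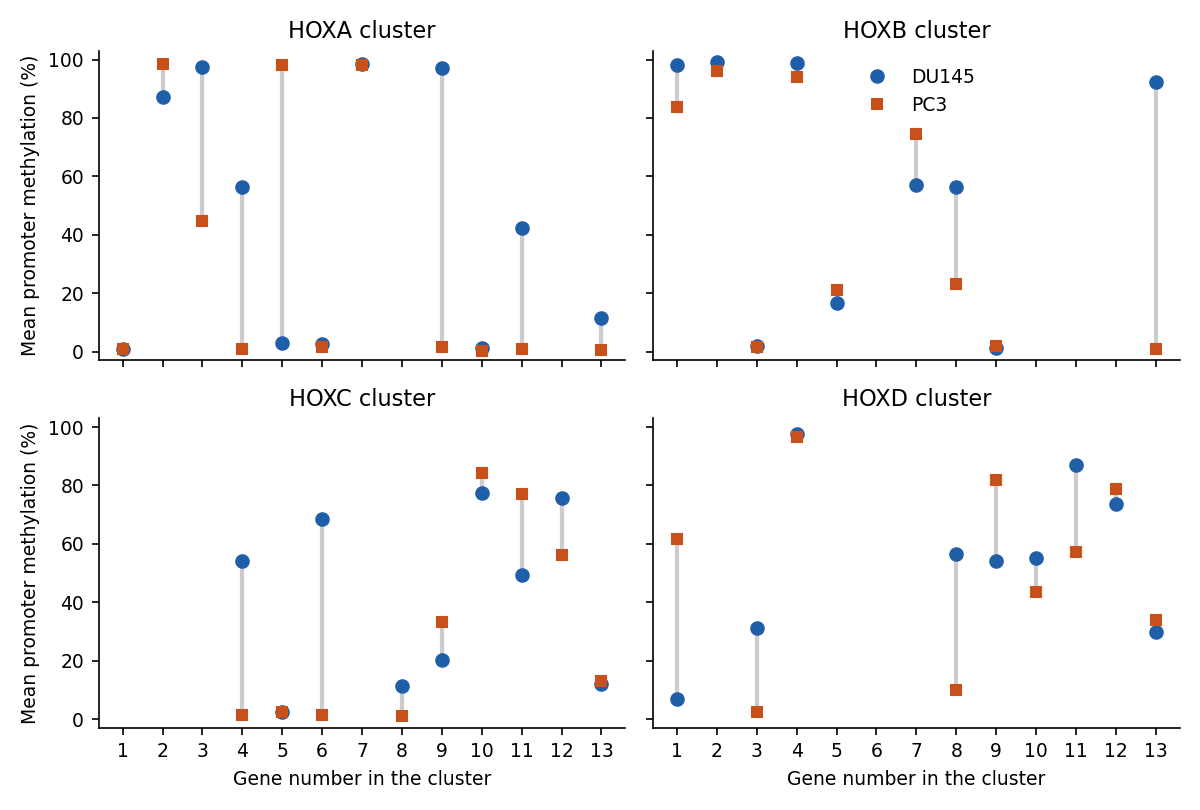
Mean methylation (%, y axis) of the measured HOX promoters in DU145 and PC3, by gene number within each cluster (x axis), over compared CpGs outside CCGG and TCGA. HOXA5 is at 2.9% in DU145 and 98.2% in PC3, and HOXA9 at 97.2% and 1.4%. Each window lies at the outermost 5′ end of the gene record, so its position on the chromosome need not follow the gene number.

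Of 39 measured FOX genes 4 were higher in PC3 and none in DU145, beside 1.22% and 1.15% of all promoters. FOXE1, a thyroid transcription factor, had 10.5% in DU145 and 82.5% in PC3 over 40 CpGs, and 1.3% and 82.7% over the 33 outside CCGG and TCGA. FOXB1 had 17.0% and 84.5% over 56 CpGs, and 6.4% and 83.6% over 43. FOXI3 had 11.3% and 68.8%, and 3.1% and 67.1% outside these bases, and FOXE3, a lens factor, 45.2% and 97.7%, and 43.8% and 97.9%. With 2 kb on either side FOXB1 and FOXE3 lost their calls, at -46.6 and -48.5 points, and FOXE3 was also at -32.1 points with at least 50 reads and at -48.7 with summed reads. The list was taken by symbol and includes FOXRED1, which is no forkhead gene. None of 16 SOX genes and none of 7 PAX genes reached 50 points, with SOX11 at 90.1% and 52.4% and PAX9 at 28.1% and 58.3% the furthest apart. Of 22 measured clustered protocadherins, 2 were higher in PC3, beside 1.22% of all promoters. These were PCDHGC3, with 20.9% in DU145 and 98.8% in PC3 over 11 CpGs and 0.90% and 98.6% over 7, and PCDHA7, with 42.3% and 95.4% over 5. At least 70% in both lines was found for 11, beside 6.76% of all promoters. With 2 kb on either side PCDHGC3 was at -50.3 points and PCDHA7, at -38.0, lost its call. Outside CCGG and TCGA, 15 could be measured, of which 2 were higher in DU145 and 1 in PC3. Of 187 zinc finger genes of chromosome 19, 1 was higher in DU145 and 2 in PC3, beside 1.15% and 1.22% of all promoters, and outside CCGG and TCGA 4 and 4 of 164 were, beside 1.64% and 1.65%. ZNF132 was higher in DU145 with 86.7% against 36.6%, and 90.5% against 31.0% outside these bases. ZNF565, with 40.5% against 98.5%, and 33.8% against 98.1%, and ZNF714, with 12.5% against 63.1%, and 0.65% against 57.4%, were higher in PC3. ZNF132 was 41.1 points apart with at least 10 reads, and ZNF714 was at -47.3 points with summed reads.

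Germline promoters were mostly high in both lines. Of 24 germline genes 15 were at least 70% in both, beside 6.76% of all promoters, and the median difference was 4.67 points against 0.10 over all promoters. These 2 differences are not like for like. Germline medians were 96.2% in DU145 and 83.3% in PC3, whereas 57.8% of all promoters were at most 20% in both and could differ little. Promoters poor in CpGs, which were also high, had means of 80.8% in DU145 and 72.5% in PC3. For the calls in the lists of this paragraph the background is 1.15% of all promoters higher in DU145 and 1.22% higher in PC3. TDRD5, of the piRNA pathway, was the only one at least 50 points apart, with 18.4% in DU145 and 93.3% in PC3 over 9 CpGs, and 8.3% and 93.1% over 7. Of 19 keratins and keratin-associated proteins 9 were at least 70% in both, beside 6.76% of all promoters, with a median difference of 12.0 points. Only KRT38, a hair keratin, passed the limit with 97.7% against 45.7% over 5 CpGs, but not by their median, at 46.2 points. Among 28 imprinted genes, MAGEL2, a gene of the Prader-Willi region expressed from the paternal copy, was higher in DU145 with 91.8% against 28.2% over 10 CpGs, and 91.4% against 18.0% over 8. Among these 28, ZDBF2 came next with 15.7% against 64.7%. KCNQ1OT1, a non-coding gene of the same list that these counts leave out, had 97.4% in DU145 and 38.4% in PC3 over 47 CpGs. When CpGs in CCGG and TCGA were left out, ZDBF2 passed the limit with 3.8% against 60.5%. Among 11 antigen presentation genes CD74, the invariant chain, had 30.6% and 94.3% over 5 CpGs, and its difference lost the call at -40.6 points with at least 10 reads and at -35.6 with 2 kb on either side. Outside CCGG and TCGA, CD74 kept too few CpGs, and 1 of 9 genes was higher in DU145 and none in PC3, beside 1.64% and 1.65% of all promoters. This was CANX, the chaperone calnexin, with 88.4% and 46.0% over all 12 CpGs and 91.4% and 12.0% over 8.

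Genes in constant use were low in both. None of 17 genes for writers, erasers and readers of DNA methylation reached 50 points, beside 1.15% and 1.22% of all promoters, and their differences ran from -5.46 to 1.03 points. The 60 ribosomal protein genes had medians of 1.3% in DU145 and 1.4% in PC3 outside CCGG and TCGA. Over all CpGs 1 of them (1.67%) was higher in DU145 and none in PC3, a share near the 1.15% of all promoters. RPL10L was the gene that passed the limit, with 95.9% in DU145 and 41.5% in PC3 over 10 CpGs, and 95.5% and 32.4% over 8, and was 49.9 points apart with at least 10 reads. It is a retrocopy used in the testis. RPL37A had 18.3% and 54.7%, and 1.3% and 53.9% outside CCGG and TCGA.

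For 18 measured microRNAs with a suppressor role in tumours the window at the 5′ end of the hairpin gene was taken, which need not hold the start of the primary transcript. Of these 1 was higher in DU145 and 2 in PC3, beside 2.17% and 1.52% of 461 measured microRNA genes. MIR34B and MIR34C, targets of p53, share 19 CpGs, which had 17.3% ± 25.9 in DU145 and 91.2% ± 6.8 in PC3, and 3.5% and 91.5% outside CCGG and TCGA. MIR34A, the other gene of the family, had 98.7% and 94.3% over 5 CpGs. MIR375 was higher in DU145 with 72.6% ± 29.1 against 20.5% ± 22.1 over 32 CpGs, and 71.7% against 6.7% over 22. The MIR375 difference was below the limit at 44.4 points with at least 10 reads and at 46.3 with 2 kb on either side. MIR148A, with 69.1% against 23.5% over all 10 CpGs, passed the limit only outside CCGG and TCGA.

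Of the 4 promoters that the study itself drew, 1 differed by at least 50 points. EPB41L3, a membrane skeleton protein (5630699 of chromosome 18, minus strand), had 68.3% ± 15.1 in DU145 and 15.0% ± 22.3 in PC3 over 50 CpGs, and 66.2% and 4.2% over 38, while it was 49.5 points apart with at least 50 reads. SOCS3, an inhibitor of cytokine signalling (76356158 of chromosome 17, minus strand), had 13.1% ± 23.8 and 44.7% ± 39.1 over 71 CpGs, and 1.0% ± 1.1 and 40.0% ± 42.3 over 54, a spread in PC3 that is as wide as its mean. The SOCS3 difference of -31.6 points depended on the window and summary, with -0.69 points for 500 bp on either side, -21.5 with summed reads and -53.5 by the median of CpGs. TERT, the telomerase reverse transcriptase, had 56.7% ± 39.9 and 70.7% ± 32.3 over 66 CpGs, and IGFBP3, which binds insulin-like growth factors, had 8.9% ± 19.3 and 19.5% ± 24.6 over 81. Their differences of -14.0 and -10.5 points became -36.4 and -22.7 with 500 bp on either side, and -33.0 and -6.3 by the median, and TERT was at -6.5 with at least 50 reads.

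MethylCap, a kit that captures methylated double-stranded DNA with an MBD protein, gave a separate measurement of the same lines. The deposited value is the depth of captured fragments at each base, which was divided by its mean over the compared CpGs of the library where lines are set against each other. Where RRBS was at least 50 points higher in DU145, the scaled depth was 2.20 times that of PC3 (95% counting interval 2.16 to 2.23), where it was at least 50 points higher in PC3 0.383 times (0.372 to 0.395), and where the lines were within 10 points 0.931 times. A fragment counts at every CpG it covers, so these intervals are too narrow, and with 1 CpG per 400 bp the ratios were 1.81 and 0.525. The ratio moved with the size of the RRBS difference, as it was 1.49 at 30 to 50 points and 1.18 at 10 to 30 points towards DU145, and 0.619 and 0.741 towards PC3. At the CpGs compared the mean depth was low, with 0.336 in DU145 and 0.422 in PC3, and 23.1% and 25.9% of CpGs had any captured fragment.

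At called promoters the captured depth mostly lay on the side of RRBS. Of the 227 called promoters with any MethylCap depth, 197 (86.8%, 95% Wilson interval 81.8 to 90.6) were higher in the line that RRBS gave. These 197 were 92 of 108 where RRBS was higher in DU145 and 105 of 119 where it was higher in PC3, while 60 called promoters had no depth in either line. Some called promoters share CpGs, as ADHFE1 and ENSG00000285791 share 17, so the Wilson intervals of this paragraph are too narrow. They also leave out the spread between libraries, since each line had 1. Of 3053 promoters with depth that were within 10 points in RRBS, 1589 (52.0%, 50.3 to 53.8) had the higher depth in DU145. That share describes the balance of the 2 libraries, and agreement with RRBS was not counted for these promoters. The mean depth was 0.653 in DU145 and 0.202 in PC3 at promoters higher in DU145, and 0.157 and 0.797 at those higher in PC3. NAPRT had a depth of 0 in DU145 and 2.84 in PC3, BVES 0 and 3.72, MIR34B and MIR34C 0 and 1.74, CDH7 1.56 and 0, and EPB41L3 2.24 and 0. No depth in either line was found at HOXB13, TGIF1, CENPV, H4C5, TNFRSF10C, PDLIM4, FOXE1, TDRD5, ZNF132, ZNF565 and KRT38, so MethylCap gave no direction for these. ADHFE1 went against RRBS, with a depth of 0.12 in DU145 and 1.24 in PC3. So did 4 other promoters named above, FOXE3 with 1.33 and 0.81, PCDHA7 with 0.6 and 0, AOX1 with a scaled depth of 1.92 and 1.53, and CDH13 with 0 and 0.03.

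**Figure D5:**
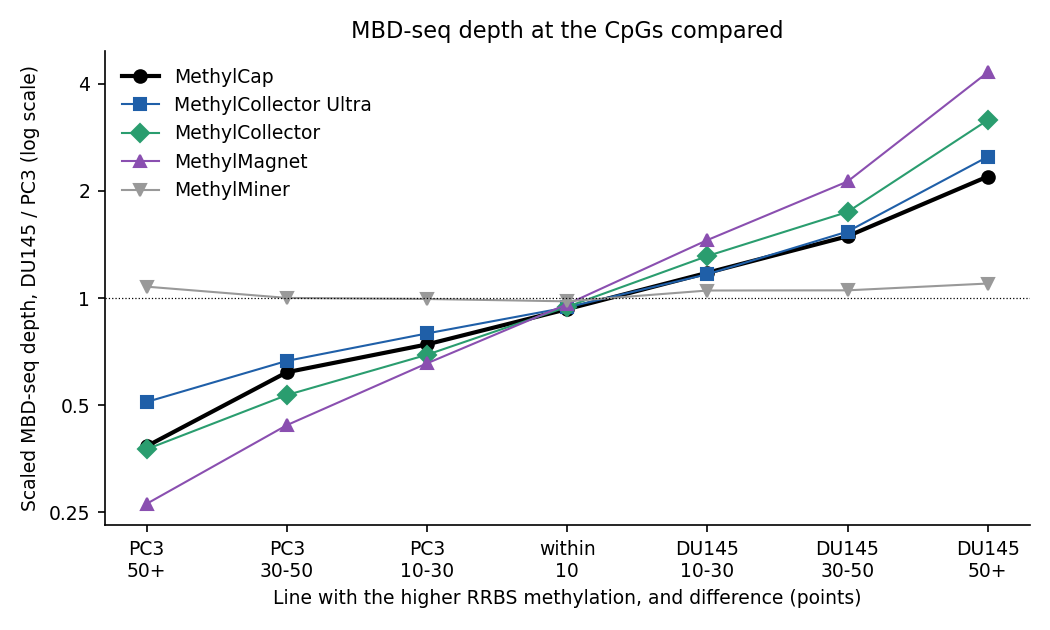
Scaled depth of captured DNA in DU145 divided by that in PC3 (y axis, logarithmic) against the RRBS difference between the lines (classes on the x axis), with 1 line per kit. MethylCap rises from 0.383 to 2.20 and MethylMagnet, with 1.36% of CpGs covered in DU145, from 0.264 to 4.31, while MethylMiner stays at 1.08 and 1.10 at both ends.

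The other kits gave ratios of different size. The ratio at CpGs at least 50 points higher in DU145 was 2.49 for MethylCollector Ultra, 3.16 for MethylCollector and 4.31 for MethylMagnet, and at CpGs at least 50 points higher in PC3 it was 0.510, 0.376 and 0.264. For MethylMiner it was 1.10 and 1.08, so this kit did not separate the lines at these CpGs. Each of these ratios comes from 1 library per line, and several libraries were nearly empty. In DU145 only 2.51% of compared CpGs had any captured fragment with MethylCollector Ultra, 2.99% with MethylCollector and 1.36% with MethylMagnet. In PC3 these shares were 23.2%, 7.85% and 11.2%. The ratios of these kits therefore do not rank them.

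HCT15, which derives from a colorectal tumour, served as an outside reference at 946029 CpGs with at least 20 reads in all 3 lines. Among these, 4.91% were at least 50 points higher in DU145 than in PC3 and 1.67% higher in PC3. HCT15 was at least 50 points higher than DU145 at 4.75% and lower at 2.52%, and higher than PC3 at 6.74% and lower at 1.6%. These comparisons share libraries. At the CpGs that were higher in DU145 the mean of HCT15 was 66.7%, and at those higher in PC3 it was 66.8%, beside 53.8% at CpGs within 10 points. At promoters higher in DU145 HCT15 had at least 70% at 90 of 123, at promoters higher in PC3 at 74 of 139, and at all promoters at 2076 of 11556 (18.0%). HCT15 had 98% at CDH2 and CDH7 and 87% at HOXA5, while it had 13% at HOXB13 and TNFRSF10D and 10% at NAPRT and TGIF1.

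Runs of neighbouring CpGs showed where differences were sharp. At least 5 successive called CpGs, each within 500 bp of the next, formed 1556 runs higher in DU145, which held 15.1% of the CpGs called in that direction, and 1056 runs higher in PC3, which held 39.4%. Of the runs higher in PC3 38.4% lay in promoters and 13.4% between genes, and of those higher in DU145 27.0% and 20.2%. The longest lay in an exon of SH2B2, an adaptor of receptor kinases, at chr7:101961848-101962032, with 6.49% ± 9.37 in DU145 and 97.9% ± 3.04 in PC3 over 30 CpGs. Long runs towards DU145 lay at KAZN, with 93.3% and 9.15% over 26 CpGs, and at VSTM2B, with 94.2% and 15.3% over 25. In an exon of PCDH7, a protocadherin, 23 CpGs had 96.3% and 19.4%, and in the exon of FZD8, a Wnt receptor, 19 CpGs had 92.4% and 2.37%. Towards PC3 long runs lay at HEYL, a Notch target gene, with 4.18% and 86.8% over 21 CpGs, at USP44, a deubiquitinase, with 4.06% and 95.5% over 21, and at IRAK3, an inhibitor of Toll-like receptor signalling, with 3.45% and 89.8% over 20. The genes of these runs, which are the longest ones and others of similar length, were chosen after their values were seen.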

How the data were processed

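RRBS libraries of DU145 and PC3, and of HCT15 as a reference, and MBD-seq libraries with 5 kits were used. The authors deposited, per CpG, a count of methylated reads and a count of all reads, with hg19 coordinates. For MBD-seq they mapped reads with Bowtie and deposited the depth of coverage per base as a signal. The RRBS aligner and enzymes are not given in the sources used here. Rows that were not on a CpG were left out (577 in DU145, 653 in PC3), and the lowest coverage in the files was 6.

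Python 3.11.15 with numpy 2.4.6, pandas 2.3.3 and scipy 1.17.1 was used, with GENCODE release 44 gene records on GRCh37. CpGs needed at least 20 reads in both lines (94931561 reads in DU145 and 67610788 in PC3 at these CpGs). Calls were differences of at least 50 points, or 20 points for 1 Mb windows. Only the outermost 5′ end of a gene record was used, so internal starts are missed. Fisher's exact test was run per CpG. The scripts were checked on simulated data.

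Named were the 12 promoters per direction with the largest difference and at least 10 CpGs, the called members of gene lists, up to 6 a list and direction, those nearest to the limit, the study's 4 promoters and 3 windows per direction. The comparison and the lists were chosen with earlier results of these data known. Leaving out CpGs within CCGG or TCGA was chosen after seeing the data. Alternatives were other coverage minimums, thresholds, window sizes, summaries, scalings and kits.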

Additional observations from a re-analysis of the deposited data

How the results depend on the processing

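With 1 library per line, no replicate could be left out, and no paired analysis was possible because each line has 1 library. Differences between cultures are therefore unknown, and depth limits single CpGs and the MethylCap values. More CpGs were higher in DU145 than in PC3 under all alternatives given here, whereas at promoters, where the numbers were close, the line with more of them changed with the setting. These alternatives were not run for named promoters below the limit other than IGFBP3, TERT and SOCS3. None of the 50 named called promoters changed direction in 11 alternatives, and of 513 values of these, 491 still differed by at least 50 points. Leaving out chromosome 1 and asking for at least 10 CpGs only remove promoters and cannot change a value. They gave 45 and 44 of the 491. All alternatives also reuse the same reads, so a change of direction at such large differences was unlikely from the start. CpGs higher in DU145 and PC3 numbered 110785 and 30498 with at least 10 reads, 21651 and 7081 with at least 50 reads, 146840 and 42196 at a limit of 30 points, and 29713 and 9930 at 70 points. The mean difference over CpGs was 6.71 points with at least 10 reads, 5.16 with at least 50, 6.29 without the deepest CpGs, 6.34 without chromosome 1 and 6.31 without CpGs in CCGG or TCGA. Fisher's test called 127039 CpGs after thinning to equal depth and 109090 with at least 50 reads. With at least 50 reads 110 promoters were higher in DU145 and 93 in PC3. Promoters higher in DU145 and PC3 numbered 396 and 324 at 30 points, 38 and 48 at 70 points, 254 and 231 by the median of the CpGs, and 315 and 261 over all annotated genes. The MethylCap ratio at CpGs higher in DU145 was 2.00 after division by the MethylMiner ratio, 1.78 at 30 points, 2.78 at 70 points, 1.81 with 1 CpG per 400 bp and 2.15 without CCGG and TCGA, and 2.49, 3.16, 4.31 and 1.10 with MethylCollector Ultra, MethylCollector, MethylMagnet and MethylMiner. At CpGs higher in PC3 it was 0.356 after that division, 0.492 at 30 points, 0.275 at 70 points and 0.525 with 1 CpG per 400 bp, 0.510 with MethylCollector Ultra and 0.264 with MethylMagnet. With MethylMiner it was 1.08 and thus on the other side of 1, and the cause was not tested.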

Other observations

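Taken over all windows, promoters of genes that code for no protein, long non-coding RNA genes and processed pseudogenes, were more often higher in DU145 than in PC3. Of 5178 measured long non-coding RNA genes, 115 (2.22%) were at least 50 points higher in DU145 and 76 (1.47%) higher in PC3, and of 934 processed pseudogenes 32 (3.43%) and 11 (1.18%). Many of these windows overlap those of coding genes. Over 2000 bp away from any coding start, and with at least 10 CpGs, 32 promoters of long non-coding or microRNA genes were higher in DU145 and 37 in PC3. These counts ask for more CpGs and leave out pseudogenes, so they cannot be set against the shares above. How many genes were measured under these limits is not given here, and neighbouring genes can share CpGs, as ENSG00000286656 and ENSG00000289206 share 22. KCNQ1OT1, the imprinted antisense RNA of the KCNQ1 domain (5′ end at position 2721233 of chromosome 11, minus strand), had 97.4% ± 7.34 in DU145 and 38.4% ± 15.1 in PC3 over 47 CpGs, and 97.4% and 32.6% over the 38 outside CCGG and TCGA, beside 50.6% in HCT15. HOXC-AS1, in the HOXC cluster, went the other way with 13.2% in DU145 and 92.1% in PC3 over 15 CpGs, with a MethylCap depth of 0 and 2.47. CASC15 had 14.3% and 93.9% over 25 CpGs, and GACAT3 90.7% and 11.0% over 17. HOXC-AS1, CASC15 and GACAT3 were named after their values were seen, while KCNQ1OT1 was on the list of imprinted genes.

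Called promoters also stood close together in places. At least 3 within 100 kb were found at the histone genes of chromosome 6 between positions 27782555 and 27840124. There 2 were higher in DU145 and 2 in PC3 (H2AC14, H2BC14, H1-5 and H3C11). Between 26199521 and 26204838 of chromosome 6, ENSG00000282988, H2AC7 and H4C5 were higher in DU145. Next to HOXB13, PRAC1 and PRAC2, genes named for their expression in prostate and colon, were higher in DU145 with it. On chromosome 7 a group held HOXA5, higher in PC3, and HOXA9 and EVX1, higher in DU145. Another on that chromosome held ZNF655, FAM200A and ENSG00000272647, all higher in PC3. Whether gene spacing alone would give such groups was not tested.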
